A study of Rattus norvegicus with 6 samples.

Results

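The clones described here are those whose signal was lower in wild type mouse liver 2 h after thyroid hormone (T3). They were selected on the wild type T3 arrays themselves, as clones with a log2 ratio of -0.58 (1.5-fold) or lower on each of the 2 arrays of that comparison. The rule took 113 of 6240 clones on the array. A value on both wild type arrays was available for 3247 clones, so that 3.48% of the clones that could pass the rule did so. The size of the lowering in wild type is therefore a description of how the clones were chosen, whereas the arrays of the other 2 comparisons were not used by the rule. In 1 of these comparisons, however, untreated wild type liver was hybridised again.

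The data were 6 two-colour hybridisations, 2 for each of 3 comparisons, of mouse liver RNA on printed cDNA clones of rat origin. All mice were hypothyroid, and those of the wild type T3 experiment were males of 3 months from 1 hybrid strain. In the first comparison, livers of wild type mice killed 2 h after an injection of 5 μg T3 with 5 μg T4 were set against livers of untreated wild type mice, each as a pool of 5 mice. In the second, TRβ-/- mice, in which the thyroid hormone receptor beta is knocked out with no tissue restriction named, were compared with and without T3 for 2 h. Dose, sex and age are not given for these mice in the sources used here, and the label of 1 array speaks of liver but of no pool. In the third, called the genotype comparison here, untreated TRβ-/- and untreated wild type livers, pooled from 5 mice each, were hybridised together. The 2 arrays of the wild type T3 comparison were repeat hybridisations of 1 pair of pools, and nothing in the sources used here shows separate pools for the other comparisons. The spread given below is the SD between 2 arrays and holds no variation between animals, and for that reason no test between mice could be made.

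T3 enters the hepatocyte nucleus and binds thyroid hormone receptors, which sit on the response elements of target genes and exchange corepressors for coactivators once the hormone is bound. TRβ is the main form of the receptor in hepatocytes, and TRα, the product of a separate gene, remains in TRβ-/- liver. Raised expression is the classic response to the hormone, as for lipogenic enzymes, while other hepatic transcripts fall on treatment through mechanisms that are less well described. In whole liver RNA, fewer cells of a type and less RNA per cell cannot be told apart.

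No clone could be given a gene name, since 0 of the clone identifiers were held by the gene table used here, and clones are therefore given by the identifiers of the array. For the same reason the liver origin of the RNA could not be checked against hepatocyte markers, and more than 1 clone may come from the same transcript. The sign of the ratio also has to be stated for each comparison. In the wild type T3 comparison the deposited ratio was T3-treated over untreated. On the TRβ-/- T3 arrays, the channel labels named opposite orders on the 2 arrays. The 2 arrays correlated positively (Pearson 0.703 over 1635 clones, which are not independent replicates). The study reports dye-swaps, an exchange of the dyes between arrays, in all the experiments it describes. The TRβ-/- comparisons are not among those it lists, and it does not state whether their dyes were exchanged. How the ratios of swapped arrays were oriented before deposit is not said there. On the genotype arrays, the title of 1 array named the opposite order to its channels, and the arrays correlated at 0.36 over 3095 clones. The direction of these 2 comparisons is thus not settled. Their values are given with the sign as deposited, and the turned value stands beside the medians of the whole group. For every other value of these 2 comparisons, turning both arrays would change its sign and leave its size.

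In wild type liver the lowering was mostly modest. The median of the 113 clones, each taken as the mean of its 2 arrays, was -0.93, a 1.90-fold lower signal, with quartiles of -1.07 and -0.79. The median was -0.94 on array 1, where the clones ran from -3.78 to -0.58, and -0.88 on array 2, where they ran from -4.13 to -0.58. Thus, the bulk of the group lay within a narrow band just past the cutoff and a short tail reached much lower values. By the mean of both arrays, 77 clones were less than 2-fold lower, 25 were lower by 2-fold to 3-fold, 7 by 3-fold to 4-fold and 4 by more than 4-fold. Required on each array separately, a 2-fold lowering was met by 25 clones, 3-fold by 8 clones and 4-fold by 1 clone.

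The clones at the edge of the rule show where it separated near neighbours. MKAH43 (-0.58 and -0.66), RNAA15 (-0.96 and -0.58) and RNACB73 (-0.73 and -0.59) were the last to be included. RGIBA29 (-0.76 and -0.58), RGIAQ17 (-0.74 and -0.58) and RNAA88 (-1.26 and -0.57) were the first left out. The higher of the paired values therefore differed by less than 0.02 between the clones on either side, well under the median SD between arrays of 0.13 for the group.

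The paired wild type arrays differed by less than 0.2 in 62 of the 113 clones and by more than 0.5 in 12 clones. Array 1 gave the lower value for 66 clones and array 2 for 47. The widest difference was seen for RNABK65, at -0.95 on array 1 and -3.11 on array 2, followed by RGIAW29 (-2.01 and -0.90) and RGIAQ57 (-2.01 and -1.10). The means of these clones thus rest on 1 array more than on the other. Of the 3247 clones with both values, 254 (7.82%) were at -0.58 or lower on array 1 and 211 (6.50%) on array 2. Besides the 113 that met the cutoff on both, 141 met it on array 1 alone and 98 on array 2 alone, and 16 of the clones lowered on 1 array were at 0.58 or higher on the other.

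**Figure D1:**
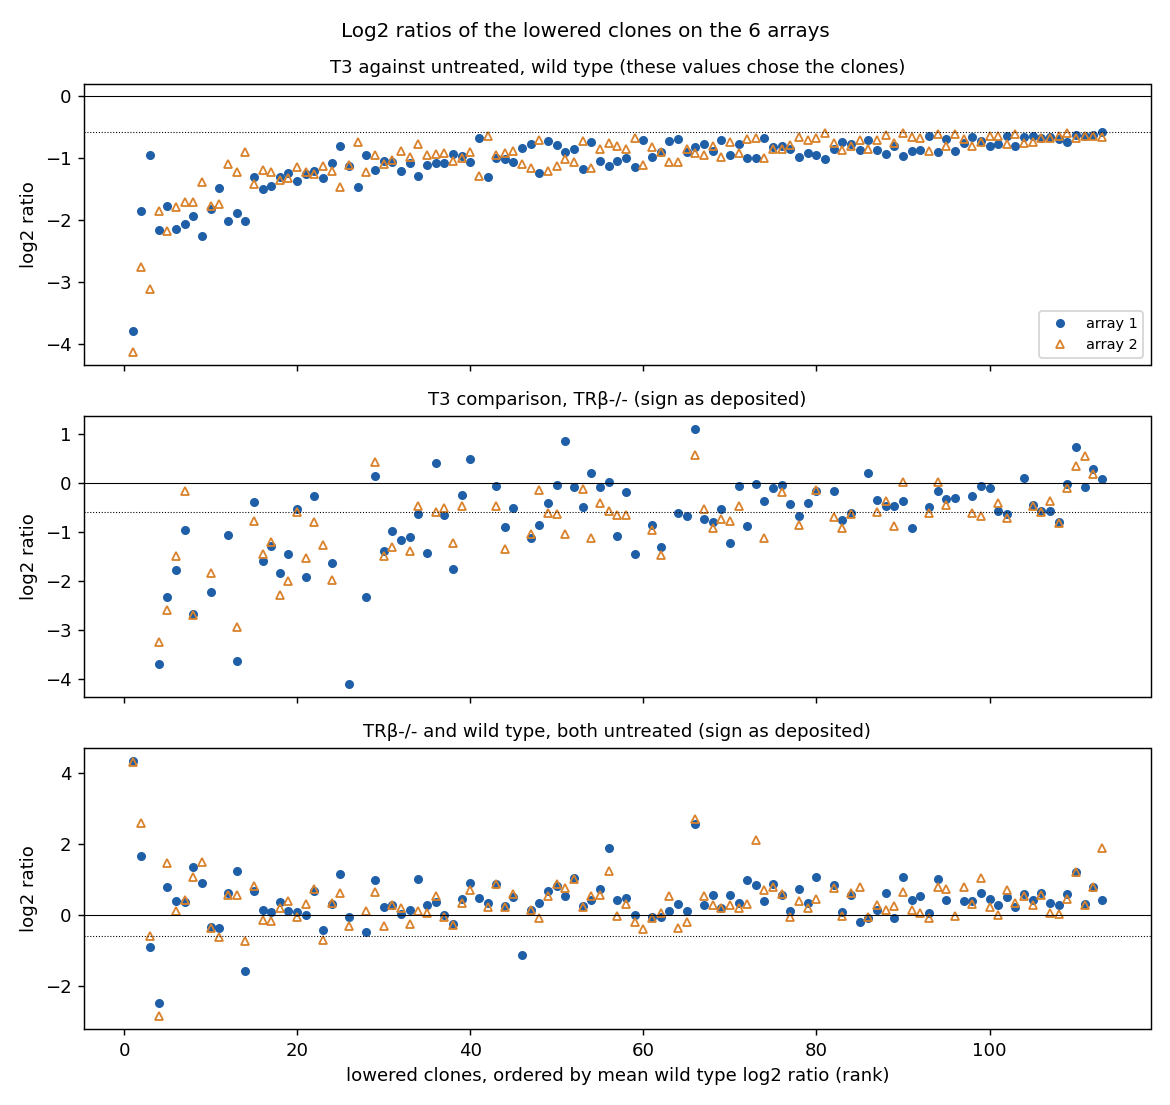
Log2 ratios of the 113 clones on each array (filled circles array 1, open triangles array 2), with clones ordered along the x axis by their mean wild type value and the dotted line at -0.58. The top panel holds the values that chose the clones, the middle panel the TRβ-/- T3 arrays, where most points lie below 0, and the bottom panel the genotype arrays, where most lie above 0, both with the sign as deposited.

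The most strongly lowered clone in wild type was RNABO13, at -3.78 and -4.13, a 15.5-fold lower signal by the mean. It had no value on the TRβ-/- T3 arrays and stood at 4.34 and 4.29 on the genotype arrays. These were the largest values of any lowered clone in both comparisons in which it was measured. RNABI77 behaved similarly, at -1.85 and -2.75 in wild type and 1.65 and 2.60 in the genotype comparison, again without a TRβ-/- T3 value. RNABK65, the third by mean, was at -0.89 and -0.59 on the genotype arrays, the opposite sign to the first pair. Since spots below 2 times background were left out before deposit, a missing value can mark a weak or absent spot on that array.

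RGIAF89 had a negative ratio in each of the 6 hybridisations, with the sign of the TRβ-/- T3 and genotype arrays as deposited. Its values were -2.16 and -1.85 in wild type, -3.70 and -3.24 on the TRβ-/- T3 arrays and -2.49 and -2.86 in the genotype comparison. No other lowered clone was below -1 on both arrays of the genotype comparison. RNABD51 was at -1.77 and -2.18 in wild type and -2.32 and -2.60 on the TRβ-/- T3 arrays, with 0.77 and 1.47 in the genotype comparison. RGIBB45 stood at -1.94 and -1.71 in wild type, -2.68 and -2.70 on the TRβ-/- T3 arrays, and 1.36 and 1.07 in the genotype comparison. On the T3 arrays, as deposited, the ratios of these clones were thus lower in TRβ-/- than in wild type.

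The remaining clones of the 10 lowest in wild type divided on the TRβ-/- T3 arrays. RGIBA89 (-2.14 and -1.78 in wild type) was at -1.76 and -1.49 there, and RGIAQ41 (-1.83 and -1.77) at -2.21 and -1.82. RGIAQ45 (-2.06 and -1.70) was at -0.96 and -0.15, with an SD between arrays of 0.57. RGIAX51 (-2.26 and -1.38) had no TRβ-/- T3 value. Of these clones, RGIAQ45 thus had the weakest ratio in TRβ-/-, and its 2 arrays lay on either side of the cutoff.

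Both TRβ-/- T3 values were available for 72 of the 113 clones (63.7%), against 1317 of the 2468 clones that stayed under 1.5-fold on both wild type arrays (53.4%), which serve as the comparison clones below. A further 22 lowered clones had a value on array 1 only, 1 on array 2 only, and 18 on neither. The clones with no TRβ-/- T3 value had a wild type median of -0.98, close to that of the whole group, but they included 3 of the 4 clones lowered more than 4-fold. The TRβ-/- values that follow thus leave out 3 of the 4 most strongly lowered clones.

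The clones lowered by T3 in wild type also had mostly negative ratios on the TRβ-/- T3 arrays. Of the 72 clones, 61 (84.7%) were below 0 on both arrays, 4 (5.56%) were above 0 on both and 7 had values of opposite sign. The median was -0.55 as deposited (0.55 with the sign turned), with quartiles of -1.09 and -0.34 and a range from -3.47 to 0.85. On the separate arrays the medians were -0.54 and -0.65. Among the 1317 comparison clones the median was 0.0105 with quartiles of -0.16 and 0.17, 391 were below 0 on both arrays and 436 were above. The lower quartile of the comparison clones therefore lay above the upper quartile of the lowered clones. The median of the lowered clones lay 0.56 below that of the comparison clones, against a median SD between arrays of 0.20 and 0.16 in the respective groups.

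Counted by the cutoff used in wild type, 28 of the 72 clones (38.9%) were at -0.58 or lower on both TRβ-/- T3 arrays, and 0 were at 0.58 or higher on both. The background over all 1635 clones with both values was 3.79% at -0.58 or lower and 4.71% at 0.58 or higher. Among the comparison clones, 25 (1.90%) were at -0.58 or lower and 21 (1.59%) at 0.58 or higher. A value of -1 or lower on both arrays was met by 17 lowered clones (23.6%) against 1.53% of all clones. The share of lowered clones past the cutoff at the negative end was thus well above its background, and none of the 72 passed it at the positive end. A further 22 clones were under 0.58 in size on both arrays, and the remaining 22 passed the cutoff on 1 array only or with opposite signs. With limma, which here measures only the spread between repeat hybridisations, 18 of the 72 clones (25.0%) were below 0 at an adjusted p under 0.05 and 0 were above 0, beside 1.77% and 2.63% of all clones.

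**Figure D2:**
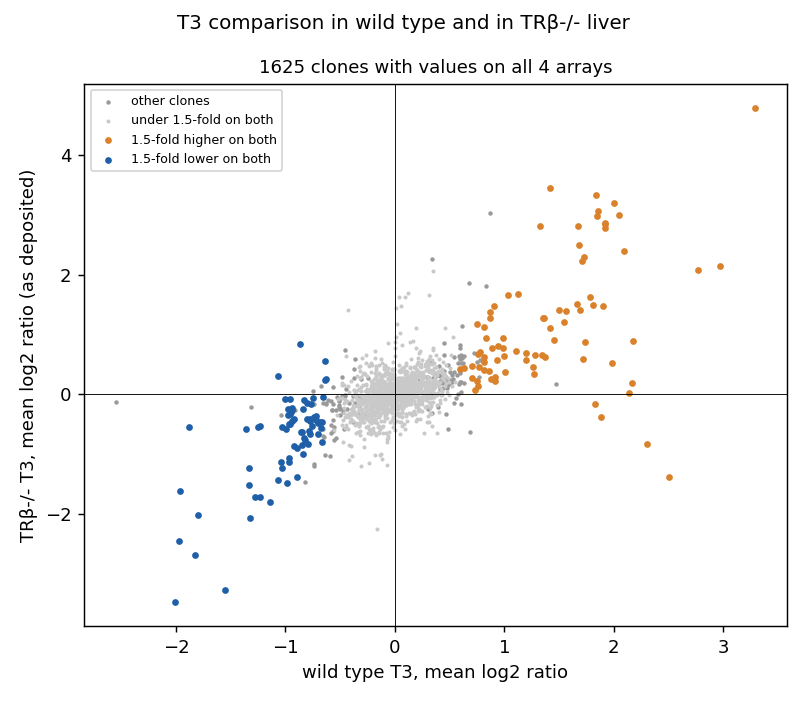
Mean log2 ratio on the wild type T3 arrays (x axis) and on the TRβ-/- T3 arrays with the sign as deposited (y axis), for clones with both values in each comparison. The 72 lowered clones (blue) spread downwards from 0.85 to -3.47 on the y axis, while clones under 1.5-fold in wild type (light grey) centre on 0; blue, orange and light grey points were separated by their x values.

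The size of the ratio in TRβ-/-, whichever its direction, followed the size of the lowering in wild type. Clones less than 2-fold lower by their wild type mean had a TRβ-/- T3 median of -0.46 as deposited (0.46 turned), and 13 of the 50 with both values (26.0%) were at -0.58 or lower on both arrays. Clones lower by 2-fold to 3-fold had a median of -1.24 (1.24 turned), with 10 of 16 (62.5%) past the cutoff. For the 3-fold to 4-fold clones the median was -2.02 (2.02 turned), with 4 of 5 past the cutoff, and the only clone of the largest class that was measured was RGIAF89, at -3.47 (3.47 turned). By size, the classes were thus in the same order on the arrays of both genotypes. Of the 25 clones that were 2-fold lower on each wild type array, 18 had both TRβ-/- T3 values. All 18 were below 0 on both arrays, with a median of -1.67 (1.67 with the sign turned), and 14 (77.8%) were at -0.58 or lower. The wild type arrays that set these classes also chose the clones, so the order is given as a description.

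**Figure D3:**
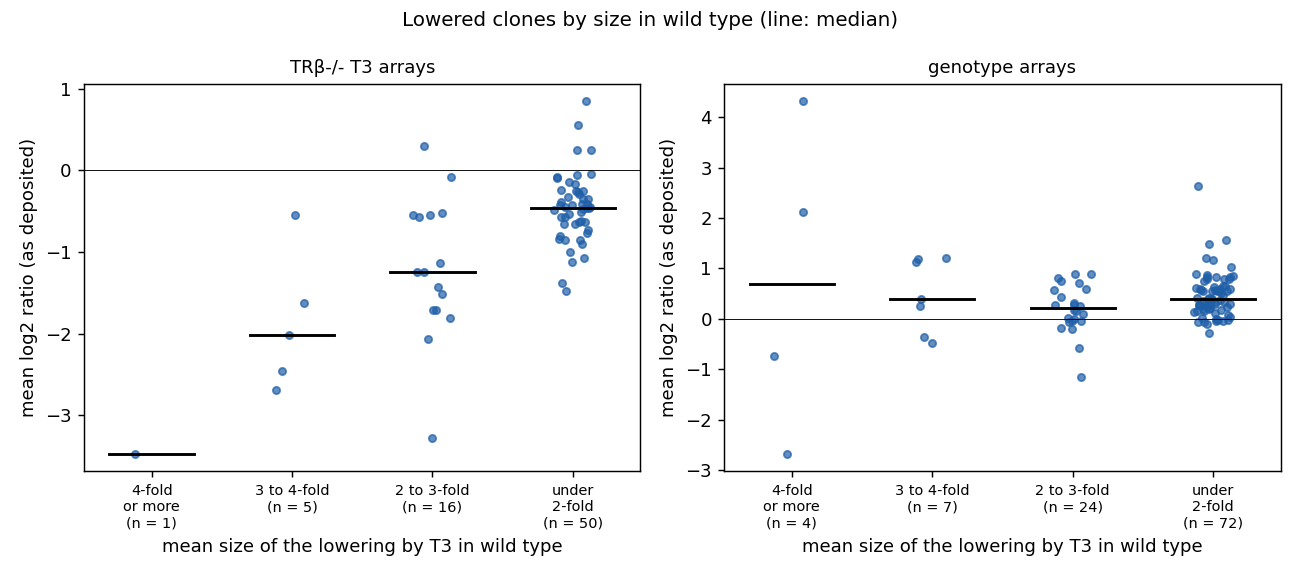
Mean log2 ratio of the lowered clones on the TRβ-/- T3 arrays (left) and on the genotype arrays (right), as deposited, by the size of their lowering in wild type; points are clones and lines are medians. The left medians run from -3.47 (1 clone) over -2.02 and -1.24 to -0.46, whereas the right medians (0.69, 0.39, 0.21 and 0.40) follow no such order.

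The 17 clones at -1 or lower on both TRβ-/- T3 arrays were RGIAF89, RGIAW06, RGIBB45, RNABD51, RNABP39, RGIAQ41, RNABP38, RNABK26, RGIAE79, RGIBA89, RGIAX35, RGIAU15, RNABU61, RNABP76, RGIAE68, RGIBB52 and RGIAU24, in order of their mean. RGIAW06, the second of them, was at -1.88 and -1.23 in wild type and -3.62 and -2.93 in TRβ-/-. RNABP39 was at -1.30 and -1.35 in wild type and -1.84 and -2.28 in TRβ-/-. RNABP38, which carries the neighbouring identifier, was at -1.08 and -1.20 in wild type and -1.63 and -1.99 in TRβ-/-. RNABP39 was the lower of the pair on each T3 array. At the other end of the list, RGIAU24 was at -0.77 and -1.16 in wild type and -1.12 and -1.03 in TRβ-/-.

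A few clones lowered at least 2-fold on both wild type arrays had a much smaller ratio in TRβ-/-. RGIAT07 (-1.37 and -1.15) was at -0.53 and -0.58 there and was the only one of the 18 under the cutoff in size on both arrays. RNABO79 (-1.29 and -1.42) was at -0.39 and -0.76, and RNAA38 (-1.20 and -1.26) at -0.25 and -0.80. Together with RGIAQ45, these were all the clones of the 18 that did not reach -0.58 on both arrays. Over the 72 clones, the TRβ-/- mean as deposited was lower than the wild type mean in 22 (in 0 with the sign turned). In 24 the size of the TRβ-/- mean, whichever its sign, was at most 0.5 times that in wild type. The wild type values also chose these clones, so smaller values on the other arrays can follow from the choice alone. A difference between the genotypes was not tested.

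In sign, 4 of the 72 clones departed from wild type, with values above 0 on both TRβ-/- T3 arrays as deposited. RNABM49 was at -0.82 and -0.91 in wild type and 1.12 and 0.57 in TRβ-/-. RNAB57 was at -0.62 and -0.67 in wild type and 0.74 and 0.36 in TRβ-/-. RNACF87 (-1.18 and -0.95) was at 0.15 and 0.45, and RGIAA16 (-0.62 and -0.63) at 0.30 and 0.20. Only RNABM49 approached the cutoff at the positive end on both arrays. The genotype values of these clones were 2.56 and 2.70, 1.20 and 1.20, 0.99 and 0.64, and 0.80 and 0.79, in the same order. Of the 7 clones with mixed signs, RNABH20 was the most divided, at 0.87 and -1.04, and it was chosen for mention after its values were seen. Each of the other mixed clones, including RNABF86 (0.21 and -1.12) and RGIAV81 (0.42 and -0.58), had at least 1 value within 0.58 of 0.

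Read from the TRβ-/- side, 62 clones were at -0.58 or lower on both TRβ-/- T3 arrays as deposited, and all 62 had both wild type values. The overlap of 28 clones made up 45.2% of these 62 and 38.9% of the 72 lowered clones that were measured in TRβ-/-. With the sign turned, 77 clones would be past this cutoff, and they include 0 of the 72. Of the others among the 62, 25 were under 1.5-fold on both wild type arrays, 8 passed the cutoff on 1 wild type array only or with opposite signs, and 1 was at 0.58 or higher on both. Even so, 54 of the 62 were below 0 on both wild type arrays. The wild type median of the 62 was -0.66, against -1.03 as deposited on the TRβ-/- T3 arrays that chose them. By the labels, the wild type and TRβ-/- T3 comparisons have no RNA in common.

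The genotype comparison shares untreated wild type liver with the first comparison and untreated TRβ-/- liver with the second. Its values are therefore set beside the others, and no relation between them is read. Both genotype values were available for 107 of the 113 clones (94.7%), and their median was 0.34 as deposited (-0.34 with the sign turned), with quartiles of 0.13 and 0.65. The medians of the separate arrays were 0.39 and 0.30. Of the 107 clones, 78 were above 0 on both arrays, 11 were below 0 on both and 18 were mixed. The 2264 comparison clones with both values had a median of -0.0139, quartiles of -0.13 and 0.11, 561 clones above 0 on both arrays and 647 below.

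Past the cutoff, 23 lowered clones (21.5%) were at 0.58 or higher on both genotype arrays and 3 (2.80%) at -0.58 or lower, against a background of 1.71% and 1.13% of the 3095 clones with both values. Of the comparison clones, 12 (0.53%) and 4 (0.177%) were past the respective cutoffs. With limma, 4 of the 107 clones were above 0 at an adjusted p under 0.05 and 1 was below, beside 0.258% and 0.355% of all clones. These shares are given as a description, since untreated wild type liver also stands in the comparison that chose the clones.

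The highest genotype values among the lowered clones were those of RNABO13, RNABM49 and RNABI77, given above. RNAA76 followed at 1.89 and 1.24, with -1.12 and -0.76 in wild type and 0.03 and -0.57 in TRβ-/-. MKAE13 was at 0.84 and 2.12, so that its place rests on array 2, with -0.99 and -0.68 in wild type. The lowest were RGIAF89, RGIAW29 (-1.58 and -0.74), RNABK65, RGIAI11 (-0.42 and -0.72) and RNABU55 (-0.35 and -0.61). All 5 of these were more than 2-fold lower in wild type by the mean, and only RGIAF89 had both TRβ-/- T3 values.

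**Figure D4:**
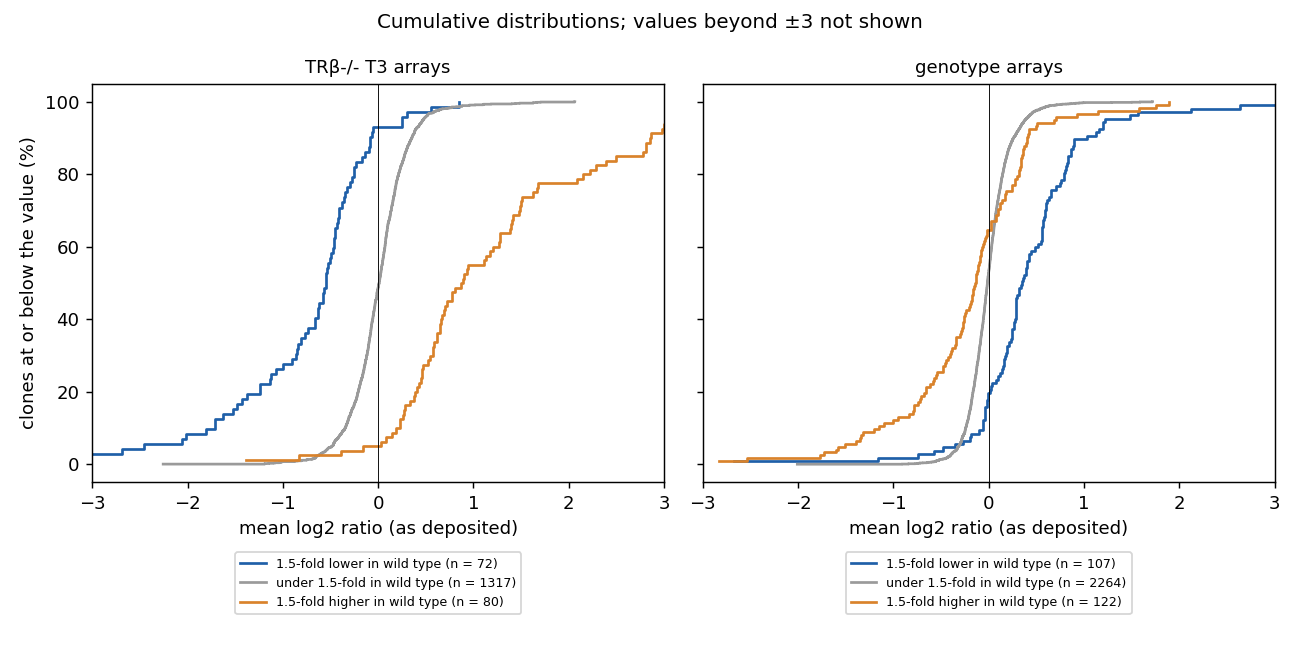
Cumulative distributions of the mean log2 ratio, as deposited, on the TRβ-/- T3 arrays (left) and the genotype arrays (right) for clones 1.5-fold lower, under 1.5-fold, and 1.5-fold higher on both wild type T3 arrays. The curve of the lowered clones lies to the left of the comparison clones on the left (median -0.55 against 0.0105) and to the right on the right (median 0.34 against -0.0139).

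For scale, the 146 clones at 0.58 or higher on both wild type arrays had a TRβ-/- T3 median of 0.88 over 80 clones with both values, and 72 of the 80 were above 0 on both arrays. Their genotype median was -0.14 over 122 clones, with 20 at -0.58 or lower and 5 at 0.58 or higher on both arrays. On the TRβ-/- T3 arrays the raised clones thus lay mostly on the opposite side of 0 from the lowered clones. Their genotype quartiles, -0.53 and 0.18, lay on either side of 0. On both genotype arrays, 66 of these raised clones were below 0 and 38 were above. Untreated wild type liver also stands in the comparison that chose both sets, so the genotype values are given as a description. The lowered clones were displaced by a smaller amount on the TRβ-/- T3 arrays. Their wild type median was also the smaller in size, at -0.93 against 1.28 for the raised clones.

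The lowered clones were unevenly distributed over the array's identifiers. The 6240 clones fall into 65 groups of 96 that share the letters of the identifier, and 45 of the groups held at least 1 lowered clone. RNAA held the most, with 10 of its 81 clones that had both wild type values (12.3%). MKAH held 6 of 25 (24.0%), MKAE 4 of 18 (22.2%) and RNAB 3 of 49 (6.12%), whereas RNAC held 0 of 70 and RNAD 0 of 50. These 6 groups are the only ones with a prefix of 4 letters. Together they held 23 lowered clones among 293 (7.85%), while the other 59 groups held 90 among 2954 (3.05%), with a highest share of 9.09% in a single group. The sources used here do not say what the prefix stands for.

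The 23 clones of these groups differed from the other lowered clones on the arrays that the rule did not use. They were also less lowered in wild type, with a median of -0.81 against -0.96. There, 1 of the 23 was 2-fold lower on both arrays, against 24 of 90 (26.7%) in the other groups. On the TRβ-/- T3 arrays their median was -0.26 over 14 clones with both values, and 0 of the 14 reached -0.58 on both arrays, against a median of -0.65 and 28 of 58 (48.3%) in the other groups. Array 1 gave a median of -0.11 for the 14 clones and array 2 a median of -0.51, so that the arrays themselves disagreed on their size. On the genotype arrays all 21 clones with both values were above 0 on both arrays, with a median of 0.82, and 12 were at 0.58 or higher. In the other groups the genotype median was 0.28 over 86 clones, with 57 above 0 and 11 below 0 on both arrays. Comparison clones of the same 4-letter groups had a TRβ-/- T3 median of 0.05 over 83 clones and a genotype median of -0.07 over 187 clones. These clones were chosen for staying under 1.5-fold in wild type, so their medians cannot show whether the groups as a whole were displaced. The parts of the prefix and of the wild type size in these values were not tested, and this split was made after the values were seen.

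**Figure D5:**
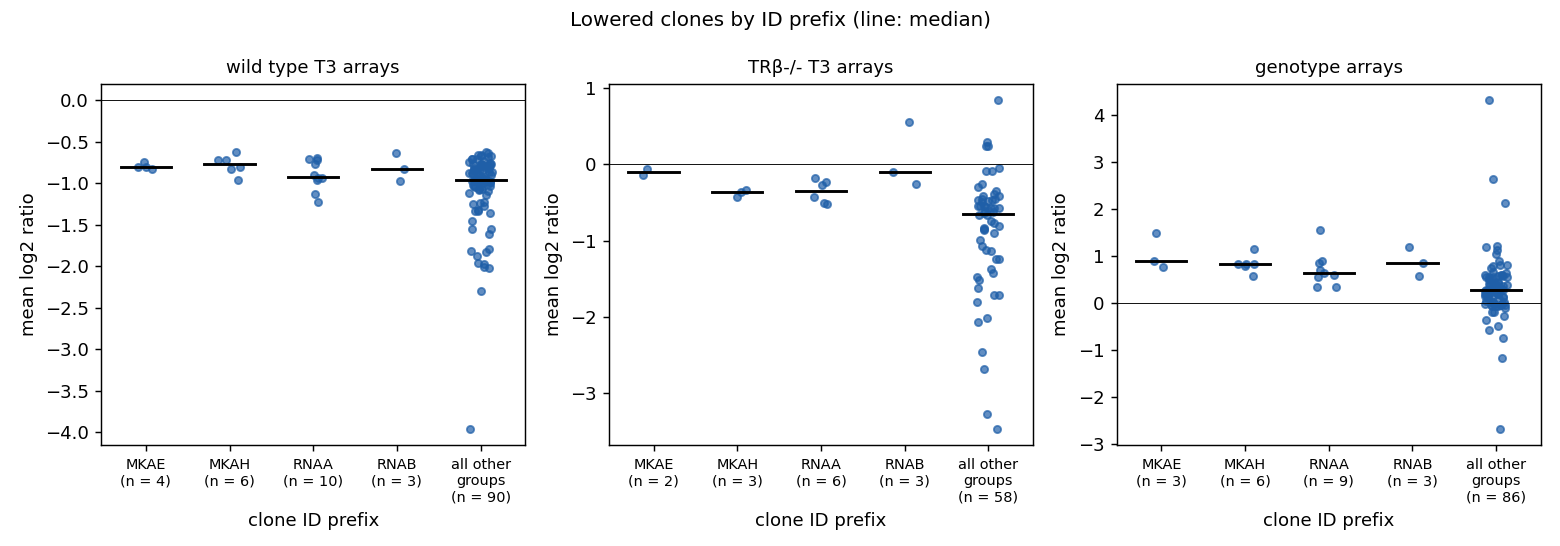
Mean log2 ratio of the lowered clones on the wild type T3, TRβ-/- T3 and genotype arrays (left to right, the last 2 as deposited), for the 4 groups with a 4-letter identifier prefix that held any and for all other groups; points are clones and lines are medians. In the 4-letter groups the TRβ-/- values stay above -0.58, and the genotype values are all above 0.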

How the data were processed

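The authors quantified each spot in GenePix Pro, subtracted the local background, dropped spots under 2 times background and normalised by Lowess in the SMA package of R. What was deposited is 1 log2 ratio for each clone on each array, without intensities, so that the brightness behind a value is unknown. Versions of these tools are not given in the sources. Values were used as deposited. Clones with a value per array numbered 1690 to 5686. The direction of the wild type T3 ratio was taken from the 10 largest ratios that the study lists for raised genes: 10 lay within 0.005 of a clone's mean ratio as deposited and 0 with the sign turned. Fold counts, medians and the SD between arrays were computed in Python 3.11.15 (pandas 2.3.3), and limma 3.58.1, tested on simulated data, served as an alternative. The members and lists were chosen with earlier results of these data known. Named clones are the 10 lowest in wild type, all at -1 or lower on both TRβ-/- T3 arrays and up to 5 above 0 on both. They also take in the 5 lowest and 5 highest genotype means, the 3 nearest on each side of the cutoff and the 3 widest wild type pairs. The prefix group with most members was named as well. RGIAT07, RNABO79, RNAA38, RNABH20, RNABF86 and RGIAV81 were named outside these rules. Pools were of 5 mice per the labels, whereas 1 passage of the methods gives 6 treated mice.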

Additional observations from a re-analysis of the deposited data

Results flagged for a closer look

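A sign opposite to wild type on both TRβ-/- T3 arrays, as deposited, was found for 4 clones that T3 lowered in wild type: RNABM49 (mean 0.85), RNAB57 (0.55), RNACF87 (0.30) and RGIAA16 (0.25). The difference between the genotypes was not tested for them, and with the sign turned the 61 clones below 0 on both arrays would be the opposite ones.

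Another 2439 clones had a value on wild type array 2 but not on array 1 and could not enter the rule. Of these, 495 (20.3%) were at -0.58 or lower on array 2, against 6.50% of the clones measured on both arrays. Spots under 2 times background were left out before deposit, so a missing array 1 value can mark a weak spot. The share of these clones at 0.58 or higher was not counted. The 495 rest on 1 array and are thus no count of clones lowered by T3.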

How the results depend on the processing

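Of 80 values obtained under other settings, 39 stayed within the spread between arrays or within 1.5 times the count, 37 moved further and 4 changed sign. All 4 changes of sign came from turning the sign of the arrays, which fixes that outcome in advance. With a cutoff of -1 in wild type, 25 clones were left, with a TRβ-/- T3 median of -1.67, 77.8% past the cutoff and a difference of -1.68 from the comparison clones, and genotype values of 0.27, 4.0% and 0.29. Taking the mean of the wild type arrays gave 190 clones. Scaling the arrays gave genotype values of 0.43, 3.61% and 0.44, and removing each prefix group's median a genotype share of 3.74%. With the sign turned, the TRβ-/- values became 0.55, 0.0% and 0.56 and the genotype values -0.34, 21.5% and -0.36. A cutoff of -1 on the arrays read gave 23.6% and 0.93%, and limma 25.0% and 0.93%. Without the 4-letter prefix groups, a choice made after seeing the data, the TRβ-/- median and difference were both -0.65 and the genotype share and difference 3.49% and 0.29. Leaving out 1 array gave 255 (without wild type array 2) to 706 (without wild type array 1) clones. Wild type array 1 had values for 3251 clones and array 2 for 5686. The 706 therefore include the 495 clones lowered on array 2 that had no array 1 value. TRβ-/- medians ran from -0.65 to -0.41, shares from 27.0% to 60.3% and differences from -0.66 to -0.43. Genotype medians ran from 0.21 to 0.39, shares from 1.34% to 4.59% and differences from 0.22 to 0.40. The highest shares, 60.3% and 4.59%, were read on 1 array alone, so a clone did not have to pass the cutoff on both. The cause of the remaining shifts was not tested. No paired analysis was possible because the values are ratios from repeat hybridisations whose numbers name no shared animals. The number of arrays limits the precision.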
